A study of Gallus gallus with 6 samples.

Results

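ELF5, OLFM4 and ABI3BP were 3 of the 17684 genes measured along the chicken cochlear duct at embryonic day 6.5, and they were chosen by name because earlier results of these data had them high at the distal end and low at the proximal end. Each duct had been cut into a distal, a middle and a proximal piece of similar length, and pieces of the same region were pooled across ducts before RNA was taken. Every piece held future basilar papilla, the hearing epithelium of birds, and future tegmentum vasculosum, a secretory epithelium of the duct, while the distal piece also held the future lagena, the macular organ at the end of the duct. The 6 RNA-seq libraries comprised 2 distal, 2 middle and 2 proximal ones, with 1 of each region in a first and in a second set per the column names. The labels used here state no strain, sex or pool size. No treatment or mutation separated the groups, which were defined by position. Cell type markers and sequencing depth also differed between them, as given below. What the pools limit is that differences between embryos and between the organs within a piece cannot be seen.

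ELF5 encodes a transcription factor of the ETS family, in the epithelium-restricted branch that also holds ELF3 and EHF. In mice it drives the secretory fate of mammary alveolar cells and maintains trophoblast stem cells. OLFM4 encodes a secreted glycoprotein with an olfactomedin domain and in humans marks the stem cells at the base of intestinal crypts. ABI3BP encodes an extracellular matrix protein with fibronectin type III repeats, named for its binding to the adaptor protein ABI3. In birds high tones are sensed near the proximal end of the papilla and low tones near the distal end. The pieces also held other organs, and only the distal one held the future lagena. A gene graded across the pieces therefore need not be graded along the papilla.

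The libraries held 9262860 (distal), 23537713 (middle) and 14489623 (proximal) alignments in the first set, and 56103107, 66072315 and 73918748 in the second. Values are RPKM, reads scaled by gene length and library size, so levels of different genes can be compared per length. From an RPKM value and the alignments of its library follow the reads per kilobase of gene behind it, if these alignments were used in the scaling. The first-set proximal library stood apart: across tested genes its log2 values correlated at 0.918 with the distal and 0.948 with the middle library of its set, against 0.965 and 0.984 for the same pairs in the second set (genes are not independent replicates). Tests covered the 12559 genes with 1 RPKM or more in at least 2 libraries. All 3 members passed, OLFM4 and ABI3BP only through their distal and middle libraries, so passing says nothing about them.

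ELF5 was the most abundant of the 3 genes in every library. It measured 71.3 and 51.8 RPKM in the first-set and second-set distal libraries, 30.7 and 21.2 RPKM in the middle and 10.4 and 10.4 RPKM in the proximal ones. The regions did not overlap, and the first-set value was the higher one in the distal and middle pieces. The means were 61.5 ± 13.8 RPKM distally, 26.0 ± 6.75 RPKM in the middle and 10.4 ± 0.0114 RPKM proximally (SD, n = 2 each). In the distal pieces the gene stood above 90.5% and 89.1% of all tested genes, in the middle above 78.9% and 67.9%, and in the proximal pieces above 56.9% and 44.6%. The gene was thus well expressed at the proximal end too, with at least 151 reads per kilobase behind each of its values. Distal RPKM was 6.85 times the proximal one in the first set and 4.97 times in the second.

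OLFM4 was close to undetected in the proximal pieces. Its values were 5.20 and 4.65 RPKM in the first-set and second-set distal libraries, 1.33 and 0.807 RPKM in the middle and 0.0497 and 0.0768 RPKM in the proximal ones. The regions did not overlap here either. The means were 4.92 ± 0.391 RPKM distally, 1.07 ± 0.370 RPKM in the middle and 0.0632 ± 0.0192 RPKM proximally (SD, n = 2 each). The distal values rest on 48.2 and 261 reads per kilobase of gene in the first and second sets, and the proximal ones on 0.720 and 5.68. Distal over proximal RPKM came to 105 in the first set and 60.5 in the second, and the proximal depth limits the precision of both ratios.

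ABI3BP had nearly the same distal level as OLFM4 and a somewhat higher proximal one. It measured 5.50 and 5.88 RPKM in the first-set and second-set distal libraries, 1.74 and 1.99 RPKM in the middle and 0.165 and 0.302 RPKM in the proximal ones, again without overlap between regions. The means were 5.69 ± 0.269 RPKM distally, 1.86 ± 0.174 RPKM in the middle and 0.234 ± 0.0962 RPKM proximally (SD, n = 2 each). In contrast to ELF5, its second-set value was the higher one in every region. That was also so at the median of the tested genes. Their median first-over-second ratio of RPKM + 1 was 0.860 distally, 0.847 in the middle and 0.726 proximally. The proximal values rest on 2.40 and 22.3 reads per kilobase, and the distal RPKM was 33.2 and 19.5 times the proximal one within the sets.

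**Figure D1:**
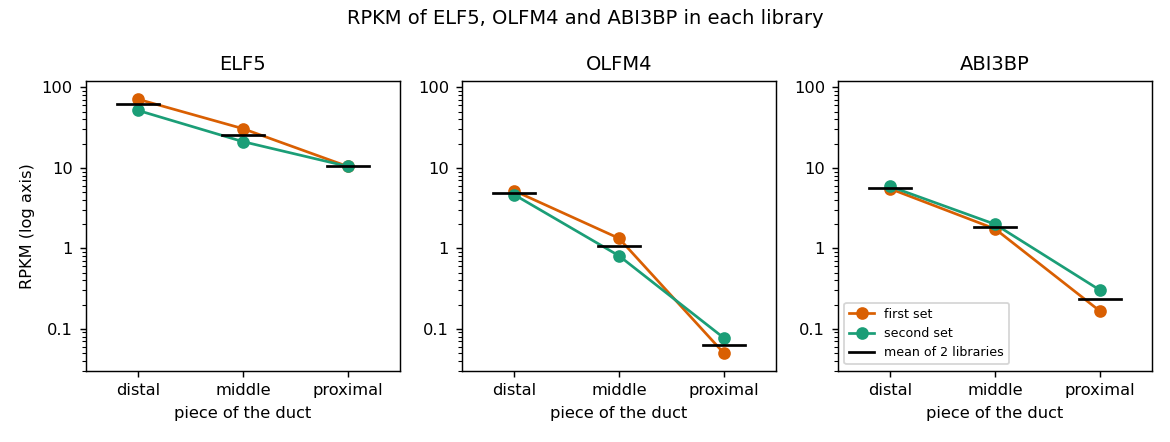
RPKM (log axis, same range in each panel) of ELF5, OLFM4 and ABI3BP in the distal, middle and proximal pieces, with 1 point per library joined within its set and a bar at the mean of 2 libraries. Each gene descends from distal over middle to proximal in both sets, and OLFM4 reaches 0.0497 RPKM in the first-set proximal library.

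Differences below are on the log2(RPKM + 1) scale, on which the change of a low gene appears smaller than it is. The distal minus proximal difference was 2.44 for ELF5, 2.48 for OLFM4 and 2.44 for ABI3BP. Ranked from the most positive to the most negative difference, the 3 genes stood at places 21, 19 and 20 of the 12559 tested genes. Within the first set these differences were 2.66, 2.56 and 2.48, and within the second 2.21, 2.39 and 2.40. Without the first-set proximal library they were 2.44, 2.46 and 2.36. These values describe the contrast on which the genes had been chosen and carry no test. With a pseudocount of 0.25 in place of 1 they were 2.52, 4.05 and 3.63, so the near equality of the 3 genes depended on the pseudocount. The smaller one set ELF5 well below OLFM4 and ABI3BP. In bulk pieces, fewer cells of a type and less RNA per cell cannot be told apart.

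Markers of several cell types differed between the same pieces. The papilla markers SOX2 and TECTA were present in every library (42.9 to 88.5 RPKM and 101 to 232 RPKM). Neuron markers were lower distally in both sets for 6 of 6 genes and red blood cell markers (HBZ and HBE) for 2 of 2. Glia markers were so for 2 of 3 and hair cell markers for 6 of 8. The median differences were -1.01, -1.50, -1.73 and -0.67 in this order. Over all tested genes 24.7% were lower in both sets, and the median was 0.10. In limma with the set as a replicate block, 2 neuron markers and 1 hair cell marker were called lower (background 0.279%), and 0 without the block. The summed RPKM of the red blood cell markers was 266 and 222 distally, 382 and 270 in the middle and 840 and 569 proximally, and that of the glia markers 225 and 266, 419 and 280, and 415 and 359. Supporting cell markers had a median of 0.42, and 5 of 7 were higher and 0 lower distally in both sets (background 33.3% and 24.7%). With the block 2 of them were called higher in limma (background 0.247%), and 0 without it. These were TECTB (3.73, adjusted p = 0.0318) and FGFR3 (2.79, adjusted p = 0.0163), whose differences exceeded those of the 3 genes with the pseudocount of 1. The order was another by RPKM ratio, on which TECTB was the steepest of the 7. Relative to it, the distal over proximal ratio of OLFM4 was 2.54-fold in the first set and 4.50-fold in the second. That of ABI3BP was 0.807-fold and 1.45-fold, and that of ELF5 0.167-fold and 0.370-fold. Endothelial markers had a median of -0.16 and leukocyte markers of -0.48. The part of these cell types in the slopes of ELF5, OLFM4 and ABI3BP was not tested.

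The order distal, middle, proximal without any overlap of libraries, which all 3 genes had, was found in 1.70% of the tested genes. The higher distal than proximal values are part of the choice, so this share is a description of the background. The position of the middle piece was not a stated part of the choice, though earlier results of these data were known when it was made. Of the tested genes, 146 (1.16%) were at least 2-fold higher distally than proximally in both sets. Among them 114, or 78.1%, had a middle value between the ends in both sets. Over all tested genes 1074 (8.55%) had this order with the distal end highest, and only 4185 were higher distally than proximally in both sets. Genes not higher distally cannot have this order, and a wide gap between the ends makes it likelier, so these shares are not comparable. On a scale with the distal value at 100% and the proximal one at 0%, the middle piece of these 146 genes stood at a median of 48.5% (quartiles 27.0% and 64.4%). ELF5 stood at 49.4%, OLFM4 at 38.1% and ABI3BP at 49.8%.

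The step between the distal and the middle piece and that between the middle and the proximal piece were of similar size for ELF5, and for ABI3BP only with the pseudocount of 1. The distal minus middle difference was 1.22 ± 0.38 for ELF5, 1.53 ± 0.39 for OLFM4 and 1.22 ± 0.39 for ABI3BP (SE from limma, n = 2 libraries per region). The middle minus proximal difference was 1.22 ± 0.38, 0.95 ± 0.39 and 1.22 ± 0.39 in the same order. These comparisons share the middle libraries with each other and the distal or proximal libraries with the choice of the genes, so no p is given. With a pseudocount of 0.25 the steps of ABI3BP were 1.49 between distal and middle and 2.14 between middle and proximal, and those of ELF5 1.24 and 1.27. In the first set ELF5 made the larger step between middle and proximal (1.48, against 1.19 between distal and middle), and in the second set the larger one between distal and middle (1.25, against 0.96).

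The middle piece was tested against the mean of the ends, a contrast that is orthogonal to the distal minus proximal one. The difference was -0.001 ± 0.33 for ELF5, -0.29 ± 0.34 for OLFM4 and -0.004 ± 0.34 for ABI3BP, with 95% intervals of -0.78 to 0.77, -1.08 to 0.50 and -0.80 to 0.79. None of the 3 passed in limma (adjusted p = 1.00 each, unadjusted p = 0.997, 0.416 and 0.991). Over all tested genes 0 passed, which is 0% in either direction, and 53 had an unadjusted p below 0.05. With the set as a replicate block the intervals narrowed to -0.48 to 0.48, -0.78 to 0.20 and -0.46 to 0.46, again 0 genes passed, and 424 had an unadjusted p below 0.05. Residual spread entered the choice of the genes, so these intervals may be too narrow. A departure of the middle piece from the midpoint was not detectable, and one within these intervals remains possible. With no pseudocount the middle of OLFM4 stood at 70.7% and 57.3% of the way from proximal to distal in the first and second sets, and with the pseudocount at 44.9% and 31.2%, so on which side of the midpoint it lies depends on the scale. Without a pseudocount ABI3BP stood at 67.2% and 63.5%, above the midpoint, and with it at 49.8% and 49.9%. ELF5 stood at 56.3% and 44.3% without it.

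**Figure D2:**
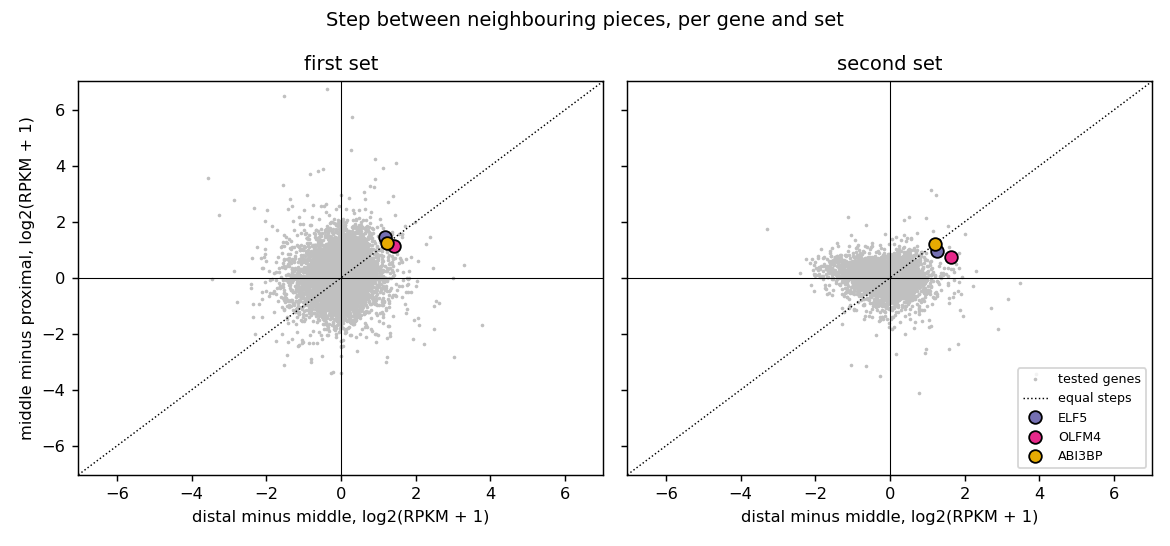
Difference between the distal and the middle piece (x axis) against that between the middle and the proximal piece (y axis), both on the log2(RPKM + 1) scale, for every tested gene (grey) and the 3 members (coloured), with 1 panel per set. The axes share the middle library. With the pseudocount of 1 the members lie in the upper right near the dotted line of equal steps, and OLFM4 lies furthest below it, with 1.64 and 0.75 in the second set.

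The ELF relatives of ELF5 had far smaller differences, and none passed. Because ELF5 had been chosen on this difference, its gap to the relatives is a description, as are those of OLFM4 and ABI3BP to theirs. The 4 other tested genes listed with it were ELF1, ELF2, ELF3 and SPDEF, of which ELF3 is in its epithelial branch. Of these 4, 0 were called higher and 0 lower between distal and proximal in limma, with or without the set as block. Over all tested genes 0.247% were called higher and 0.279% lower with the block, and 0% without it. At an unadjusted p below 0.05 there was 1 of the 4 with the block and 0 without, and over all tested genes these shares were 14.7% with the block and 4.04% without. In both sets 3 of the 4 were higher distally, where 33.3% of all tested genes were. ELF1, a broadly used ETS factor gene, measured 6.40 and 7.71 RPKM distally, 5.13 and 5.21 RPKM in the middle and 3.19 and 4.78 RPKM proximally, a difference of 0.71 ± 0.24 (SE from the fit with the set as block, as for all genes below, adjusted p = 0.263 in limma).

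ELF3, the epithelial relative, was at 3.33 ± 0.193 RPKM distally, 2.24 ± 0.177 RPKM in the middle and 2.45 ± 0.219 RPKM proximally (n = 2 each). ELF2 had a difference of 0.17 and SPDEF, a factor of goblet and other secretory cells, of -0.13. EHF, another epithelial relative and the next protein-coding gene to ELF5 on the chromosome in RefSeq's GRCg7b annotation, measured 0.243 and 0.402 RPKM distally, 0.144 and 0.239 RPKM in the middle and 0.158 and 0.183 RPKM proximally, and was too low to be tested. ELF5 was thus the highest of these 6 listed genes in each distal library. In the proximal libraries it was lower than ELF2 (10.4 and 10.4 RPKM for ELF5, against 17.0 and 30.4 RPKM for ELF2). Of the 16 other ETS family genes tested, 3 were higher and 6 lower distally in both sets (background 33.3% and 24.7%), with a median difference of -0.09 against 0.10 over all tested genes. In limma 0 of the 16 passed, with 5 at an unadjusted p below 0.05 with the block (background 14.7%) and 0 without.

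The olfactomedin family went both ways. Of the 8 tested relatives of OLFM4, 3 were higher and 4 lower distally in both sets (background 33.3% and 24.7%), with a median difference of -0.51. In limma 0 passed (unadjusted p below 0.05 for 3 with the block, background 14.7%, and for 1 without). OLFML2B, which encodes a secreted, matrix-binding olfactomedin-like protein, had the opposite slope to OLFM4. It measured 4.10 and 6.15 RPKM distally, 10.9 and 15.1 RPKM in the middle and 26.4 and 21.6 RPKM proximally, without overlap between regions, a difference of -2.05 ± 0.27 (limma, blocked adjusted p = 0.0534, and 0.652 without the block). OLFM1, a secreted protein of neural tissue, measured 45.0 ± 2.35 RPKM distally, 65.7 ± 2.94 RPKM in the middle and 71.3 ± 0.737 RPKM proximally (n = 2 each), a difference of -0.65 ± 0.19 (blocked adjusted p = 0.205 in limma).

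OLFML3 and OLFML2A had differences of -1.03 ± 0.35 and -0.82 ± 0.35, each larger in the first set, where the proximal values were 189 and 53.3 RPKM, than in the second, where they were 66.3 and 32.8 RPKM. OLFM3 had a difference of 0.39, GLDN, which encodes the gliomedin of myelinated nerves, of 0.23, LPHN3, a latrophilin receptor gene, of 0.12, and MYOC, which encodes myocilin, of -0.37, with its sign differing between the sets. OLFML1 stayed at 0.623 RPKM or below and was not tested. The summed RPKM of 6 neuron markers was 293 and 283 distally, 847 and 881 in the middle and 816 and 734 proximally. Like OLFM1 and OLFML2B the sum was lowest distally. The sum peaked in the middle, but the markers behind it differed. NEUROD1 was highest proximally in each set, as OLFM1 and OLFML2B were. STMN2, ELAVL4 and SNAP25 were highest in the middle in each set, and GAP43 and NEFM were highest proximally in the first set and in the middle in the second. In each set all 6 markers were lower distally than proximally, and their part in the differences of the olfactomedin genes was not tested.

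The matrix and adaptor genes listed with ABI3BP had differences of both signs, from -1.14 to 0.72. Of 8 tested relatives, 3 were higher and 3 lower distally in both sets (background 33.3% and 24.7%). The median was 0.03 and turned to -0.05 under quantile normalization. In limma 0 passed (unadjusted p below 0.05 for 3 with the block, background 14.7%, and for 0 without). FNDC1, like ABI3BP a gene for a protein with fibronectin type III repeats, measured 0.215 and 0.800 RPKM distally, 0.331 and 0.750 RPKM in the middle and 1.18 and 3.89 RPKM proximally. Its distal and proximal libraries did not overlap, and the difference was -1.14 ± 0.27 (limma, blocked adjusted p = 0.134). FN1, which encodes fibronectin, had 91.6 and 303 RPKM distally, 54.5 and 197 RPKM in the middle and 45.8 and 221 RPKM proximally. The gap between the sets was far larger than that between the pieces, with a difference of 0.72 ± 0.22 (blocked adjusted p = 0.230 in limma).

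TNC, the tenascin C gene, had a difference of -0.46 ± 0.19 and was lower in the distal library of each set. ABI1 and ABI2, which encode adaptors of the actin-regulating WAVE complex, had 0.32 and -0.32, and FNDC3A, FNDC3B and FNDC5 had 0.10, 0.30 and -0.04. ABI3, the partner that gave ABI3BP its name, measured 0.178 and 1.36 RPKM distally, 0.459 and 0.979 RPKM in the middle and 0.811 and 0.862 RPKM proximally and was not tested. TNR, TNN and TNXB, further tenascin genes, were also below the filter.

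**Figure D3:**
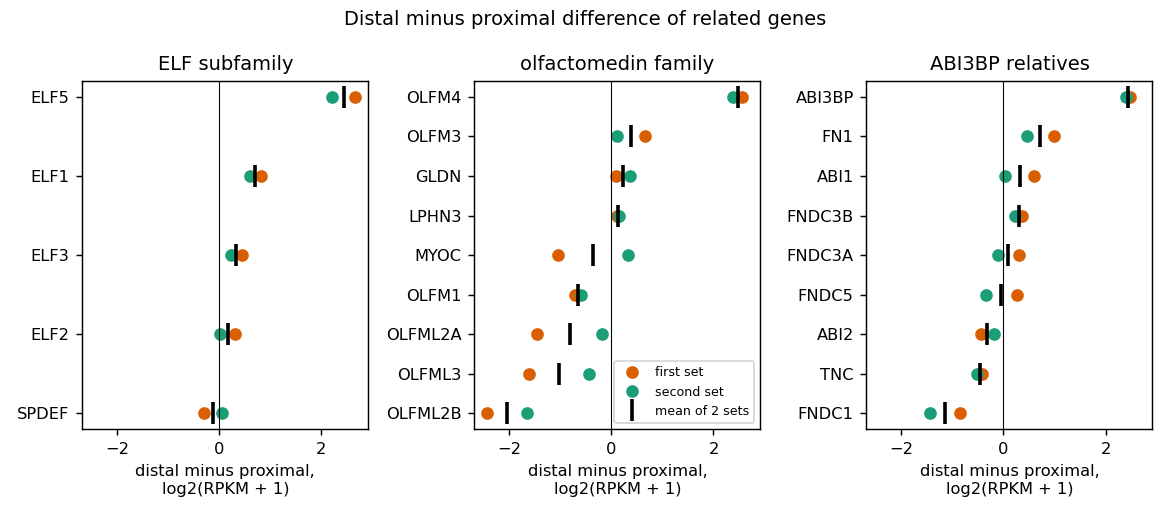
Distal minus proximal difference on the log2(RPKM + 1) scale for the tested genes of the lists titled ELF subfamily, olfactomedin family and ABI3BP relatives, with a point per set and a bar at the mean of 2 sets. ELF5, OLFM4 and ABI3BP, which had been chosen on this difference, stand alone above 2 in their panels. OLFML2B at -2.05 and FNDC1 at -1.14 mark the opposite side.

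Most epithelial genes had higher distal than proximal values, as ELF5 had. Of 12 tested genes of simple epithelia, 9 were higher and 0 lower distally in both sets (background 33.3% and 24.7%). The median difference was 0.62 against 0.10 over all tested genes. The summed RPKM of the 13 measured ones was 2396 and 1551 distally, 1872 and 1124 in the middle and 3586 and 1090 proximally. The first-set sum was thus highest proximally, where CLDN3 alone had 2985 RPKM. In limma 0 passed (7 at an unadjusted p below 0.05 with the block, background 14.7%, and 0 without). The largest differences were those of the splicing regulator genes ESRP2 (1.18 ± 0.30) and ESRP1 (0.86 ± 0.23), the epithelial adhesion gene EPCAM (0.90 ± 0.28) and the epithelial transcription factor gene GRHL2 (0.89 ± 0.30), with blocked adjusted p between 0.160 and 0.265 in limma. EPCAM measured 396 and 226 RPKM distally, 247 and 155 RPKM in the middle and 153 and 167 RPKM proximally. ELF5 amounted to 18.0% and 23.0% of the EPCAM level in the distal, 12.4% and 13.7% in the middle and 6.80% and 6.23% in the proximal libraries.

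Divided by each of the 12 tested epithelial genes in turn, the distal over proximal ratio of ELF5 lay between 1.09 and 14.1 in the first set and between 2.26 and 3.73 in the second, against undivided ratios of 6.85 and 4.97. The lowest value of the first set came from GRHL1, an epithelial factor gene that measured 2.10 and 2.70 RPKM distally, 1.49 and 1.74 RPKM in the middle and 0.333 and 1.84 RPKM proximally. The next came from ESRP2 (2.02). The highest came from the claudin gene CLDN3, which measured 2985 RPKM in the first-set proximal library and 571 RPKM in the second-set one. The lowest value of the second set came from OVOL2, beside which the first-set ratio was 9.52. The divided ratio depended on the epithelial gene and the set. For OLFM4 and ABI3BP the lowest divided ratios were 16.6 and 5.27 in the first set and 27.6 and 8.88 in the second. The part of epithelial content in the slope of ELF5 was not tested.

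Markers of matrix-producing cells were set beside ABI3BP. The summed RPKM of 6 mesenchyme markers was 191 and 317 distally, 125 and 313 in the middle and 185 and 283 proximally, with a median difference of 0.01 over the 6. Of the 6, 2 were higher and 2 lower distally in both sets (background 33.3% and 24.7%). PRRX1, a limb and facial mesenchyme factor gene, had a difference of 1.32 ± 0.26. Divided by each of the 6, ABI3BP was at least 15.1-fold higher distally in the first set and 6.08-fold in the second, the lowest value coming from PRRX1. The first-set ratios rest on 2.40 proximal reads per kilobase of ABI3BP. The 5 cartilage markers in the table summed to 904 and 1166 RPKM distally, 659 and 895 RPKM in the middle and 710 and 973 RPKM proximally, and beside each of the 4 tested ones ABI3BP was at least 6.55-fold higher distally. Of these 4, 3 were higher and 1 lower distally in both sets, with a median difference of 0.40. The part of mesenchyme and cartilage cells in the slope of ABI3BP was not tested. Among 7 supporting cell markers, TECTB, a tectorial membrane gene, had a slope similar to that of ABI3BP. It measured 37.2 and 22.2 RPKM distally, 13.4 and 10.8 RPKM in the middle and 0.903 and 1.65 RPKM proximally. Relative to TECTB, ABI3BP was 0.807-fold and 1.45-fold between distal and proximal, and OLFM4 2.54-fold and 4.50-fold. Beside the 7 markers in turn, ELF5 ranged from 0.167-fold (TECTB) to 10.4-fold (LFNG) in the first set. In the second set it ranged from 0.370-fold to 4.89-fold, with the same genes at the ends.

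Gene lists from the mammalian settings in which ELF5 and OLFM4 are known held members of both directions. For prolactin and STAT5 signalling, in which ELF5 acts in the mammary gland, 13 genes were tested. Of these 6 were higher and 4 lower distally in both sets (background 33.3% and 24.7%), with a median of 0.07. In limma 0 passed, and 1 had an unadjusted p below 0.05 with or without the block (background 14.7% and 4.04%). CISH, a STAT5-induced suppressor gene, had the largest difference, at 0.447 and 0.832 RPKM distally, 1.02 and 1.61 RPKM in the middle and 3.66 and 2.39 RPKM proximally (-1.29 ± 0.29, blocked adjusted p = 0.122 in limma). PRLR, the prolactin receptor gene, was at 1.41 RPKM or below in every library.

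Of 23 tested genes known from intestinal stem cells, a list chosen for OLFM4, 10 were higher and 5 lower distally in both sets (background 33.3% and 24.7%). The median was 0.11, against 0.10 over all tested genes. With the block 1 passed as higher and 1 as lower in limma (background 0.247% and 0.279%), and 0 did without it. An unadjusted p below 0.05 was found for 8 with the block (background 14.7%) and for 2 without (4.04%). The R-spondin receptor gene LGR5 measured 18.0 and 43.4 RPKM distally, 12.7 and 27.4 RPKM in the middle and 2.91 and 12.4 RPKM proximally, a difference of 2.00 ± 0.25 (blocked adjusted p = 0.0493 in limma). LRIG1, which encodes an inhibitor of growth factor receptors, went the other way, with 4.46 and 13.5 RPKM distally, 8.60 and 21.7 RPKM in the middle and 22.3 and 50.7 RPKM proximally (-1.96 ± 0.21, blocked adjusted p = 0.0366 in limma). Both were graded in each set, with second-set values at least 2-fold above the first-set ones in every region, a gap that OLFM4 did not show. ALCAM and PROM1 had 1.29 ± 0.33 and 1.05 ± 0.39.

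ELF5, OLFM4 and ABI3BP were each other's near neighbours by profile. Likeness was measured as the Euclidean distance between log2(RPKM + 1) values over the 6 libraries after the mean of each set had been subtracted, among the 12558 other tested genes. ABI3BP was the nearest gene to ELF5 (distance 0.254, Pearson r = 0.995 over the 6 libraries), and OLFM4 came at place 3 (0.365). To OLFM4 the nearest genes were ELF5 and, at 0.383, ABI3BP. Because the distance counts the size of the difference, on which the 3 genes had been chosen, this closeness is a description. It also uses the pseudocount of 1.

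Of the further genes with a symbol nearest to them, CDH13 and NOG were close to ELF5 (distances 0.362 and 0.414), and LDHA and ADAMTS1 close to OLFM4 (0.399 and 0.415). ITGB6 was among the 5 nearest of each of the 3. CDH13, an atypical cadherin gene, measured 22.6 and 28.8 RPKM distally, 6.99 and 10.4 RPKM in the middle and 1.69 and 5.20 RPKM proximally. ITGB6, which encodes the beta subunit of an epithelial integrin, measured 41.5 and 60.4 RPKM distally, 16.9 and 23.0 RPKM in the middle and 8.02 and 15.4 RPKM proximally. ADAMTS1, a gene for a matrix-cleaving protease, had 81.9 and 150 RPKM distally, 30.5 and 57.9 RPKM in the middle and 18.2 and 31.3 RPKM proximally. Like ELF5, LDHA and NOG had higher first-set than second-set values in the distal and middle pieces, whereas CDH13, ITGB6 and ADAMTS1 had lower ones.

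**Figure D4:**
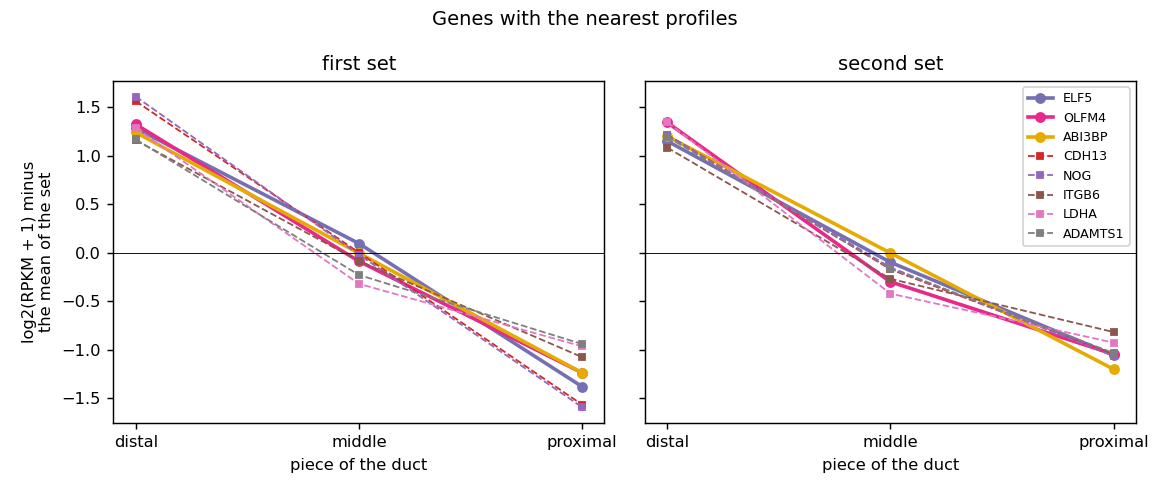
Profiles of ELF5, OLFM4 and ABI3BP (thick lines) and of the 5 other genes among their nearest (dashed), as log2(RPKM + 1) minus the mean of the set, in the distal, middle and proximal pieces, with 1 panel per set. The lines run together in the second set, and in the first set CDH13 and NOG are the steepest.

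The tested chromosomal neighbours of the 3 genes had differences between -0.57 and 0.55. In RefSeq's GRCg7b annotation, used for gene order only, CAT and EHF flank ELF5, TFG and IMPG2 flank ABI3BP, and PCDH8 lies on one side of OLFM4, the gene on its other side having no entry of that name in the table. None overlaps its neighbour there. CAT, the catalase gene, measured 38.4 and 40.8 RPKM distally, 29.9 and 37.4 RPKM in the middle and 20.9 and 34.1 RPKM proximally (0.55 ± 0.23, blocked adjusted p = 0.345 in limma). PCDH8, a protocadherin gene, had a difference of -0.57 ± 0.28, TFG of -0.43 ± 0.29 and IMPG2 of 0.16 ± 0.21, with blocked adjusted p between 0.402 and 0.689 in limma. No source used here says whether counting used the strand.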

How the data were processed

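The authors deposited RPKM values per gene. The submitters' processing notes name TopHat 1.4.0 and Partek 6.6. Genome build, annotation and strand use are not given in the sources used. The column names tie each library to a region and a set, not to a sample record. The entry holding the alignments of each library was left out of all tests. Per the labels' protocols, replicates were biological. The table has no counts, and counts per gene were not rebuilt. Reads per kilobase were computed from RPKM and the alignments of the library, taken to be the ones used in the scaling.

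From the deposited RPKM, log2(RPKM + 1) was fitted with limma 3.58.1 in R 4.3.3 over all 12559 genes that reached 1 RPKM in at least 2 libraries. Region was the factor, with a variance trend, two-sided tests, Benjamini-Hochberg adjustment and a threshold of 0.05. The fit was tested on simulated data. A second fit added the set as a replicate block. It was added because differences between the sets correlated across genes at 0.885 (distal and middle), 0.655 (distal and proximal) and 0.659 (middle and proximal). Such a correlation shows a difference between the sets that the regions share. It does not show whether the pieces of a set came from the same ducts. The models left 3 and 2 residual degrees of freedom. Unless stated, SE of the 3 members are unblocked and those of other genes blocked.

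The members and lists were chosen with earlier results of these data known. Other genes were named by a rule: the 5 nearest profiles of each member, all tested relatives, up to 4 genes with the largest difference from each further list, and chromosomal neighbours. The comparison with TECTB, the division by marker genes, and the naming of CLDN3, GRHL1, OVOL2 and PRLR were chosen after values were seen. Alternatives were a pseudocount of 0.25, no filter, quantile normalization, no variance trend, each library left out and each set alone.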

Additional observations from a re-analysis of the deposited data

How the results depend on the processing

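The distal minus proximal, middle minus proximal and distal minus middle differences of the 3 genes kept their sign under every alternative tried. A pseudocount of 0.25, without or with the replicate block, enlarged those of OLFM4 to 4.05, 2.05 and 2.0 and those of ABI3BP to 3.63, 2.14 and 1.49, as a smaller pseudocount does by construction for low values. OLFM4 between middle and proximal was 1.15 in the first set alone and 0.75 in the second, and 0.77 to 1.13 with 1 library left out. Between distal and middle it was 1.34 to 1.71 with 1 library left out. The difference of the middle from the mean of the ends passed for none of the 3 genes under any alternative fit, and its sign was unstable. With the pseudocount of 0.25, without or with the block, it was 0.015 for ELF5, 0.024 for OLFM4 and 0.32 for ABI3BP. For ELF5 it was 0.14 in the first set alone, and for ABI3BP 0.021 under quantile normalization without or with the block. With 1 library left out it ranged over -0.26 to 0.26 (ELF5) and -0.066 to 0.058 (ABI3BP), being above 0 without the first-set distal library for ELF5 (0.11), and without the second-set distal (0.017) or second-set proximal library (0.036) for ABI3BP. The replicate block left the 3 genes' differences as they were and changed the count of genes called between distal and proximal, which was 0 without it (508 at an unadjusted p below 0.05), 66 with it, 38 with the block and a pseudocount of 0.25, 234 with the block and quantile normalization, 0 with the block and no filter, and 0 to 3 with 1 library left out and no block. Between middle and proximal 2 genes were called with the block and quantile normalization, and 0 otherwise. The 3 fits that combined the block with another change were chosen after seeing the data. Apart from the pseudocount, the cause of these changes was not tested. Depth limits the proximal values of OLFM4 and ABI3BP in the first set, with 0.720 and 2.40 reads per kilobase.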
